A study of Mus musculus with 15 samples.

Results

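The NADPH oxidase subunits described here are 6 genes, *Cybb*, *Cyba*, *Ncf1*, *Ncf4*, *Rac2* and *Nox4*, chosen by symbol from the 56832 genes of the count table, and all 6 were among the 18263 genes that passed the filter on low counts. They were measured by bulk RNA-sequencing of bone marrow mesenchymal stromal cell (MSC) cultures from 16 week old mice of C57BL/6J background. The TauT-/- mice lack the taurine transporter TauT (*Slc6a6*) in all cells, not in MSCs alone, and TauT+/+ mice served as wild-type controls. Of the 15 libraries, the male-labelled ones were 4 of each genotype, and the female-labelled ones were 3 of TauT+/+ and 4 of TauT-/-. Marrow of the long bones was grown in both genotypes on collagen in low oxygen, and MSCs were enriched by removing cells positive for CD45, Ter119 or CD31. The labels do not say whether the libraries of a group came from separate animals, so p-values measure the spread between these libraries.

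NADPH oxidases are membrane enzymes that pass electrons from NADPH to oxygen and so make superoxide or hydrogen peroxide. In phagocytes, such as macrophages and neutrophils, the catalytic subunit gp91phox (NOX2, encoded by *Cybb*) sits in the membrane with p22phox (*Cyba*), and it becomes active when the cytosolic subunits, among them p47phox (*Ncf1*) and p40phox (*Ncf4*), and a Rac GTPase, in blood cells mostly *Rac2*, join it. NOX4 (*Nox4*) is a catalytic subunit of stromal, kidney and vascular cells that also pairs with p22phox, but makes hydrogen peroxide without the cytosolic subunits. The paper measured reactive oxygen species in these MSCs, and the comparison here asks how the transcripts of these enzymes differed between the genotypes.

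Values are CPM, read counts scaled to a common library size with TMM factors. Total counts were 69764291 to 101575071 in the male-labelled and 12761107 to 20781070 in the female-labelled libraries, so depth and sex label cannot be told apart. *Slc6a6* averaged 1561 ± 724 CPM in the 7 TauT+/+ and 818 ± 416 CPM in the 8 TauT-/- libraries (SD), from 586 to 2655 and from 392 to 1571 CPM. The genotypes overlapped, and libraries are named by their labels. Sex-linked genes went against the label in the libraries labelled TauT+/+ male 1, TauT-/- male 1 and TauT+/+ female 3. The libraries TauT-/- male 1 and TauT-/- female 1 were nearly identical (spread of the log2 count ratio 0.116), as were TauT+/+ male 1 and TauT+/+ female 1 (0.128), where the next closest pair had 0.289. Whether such a pair is 1 sample or not is not known, so fits without these libraries are given beside the results. The labelled cell type was checked against its markers: all 14 stromal markers passed the filter, with *Col1a1* at 12751 ± 3012 CPM (SD, n = 7) in TauT+/+ libraries, but *Lepr*, a marker of marrow MSCs, reached at most 1.90 CPM in TauT+/+ and 2.37 CPM in TauT-/- libraries. *Ptprc*, which encodes the CD45 used for depletion, was nonetheless present in every library, at 28.6 to 177 CPM in TauT+/+ and 112 to 379 CPM in TauT-/- libraries.

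Of the 6 genes, *Cyba* rose in the TauT-/- MSC cultures and the other 5 did not pass the test. The *Cyba* call held in 5 of 15 fits that each lacked 1 library. The mean of *Cyba* rose 1.99-fold, and *Cybb*, *Ncf1*, *Ncf4* and *Rac2* had higher means without passing the threshold, while *Nox4* had a lower mean. With edgeR's quasi-likelihood test, 1 member of 6 was higher at an adjusted p under 0.05 and 0 were lower, where 0.564% of all genes tested were called higher and 0.591% lower. Without adjustment, 4 of the 6 (*Cybb*, *Cyba*, *Ncf1* and *Rac2*) were higher at a p under 0.05 and 0 were lower, and the shares of all genes were 11.8% in each direction. DESeq2 called 1 member higher, again *Cyba*, and 0 lower, where it called 5.34% of all genes higher and 6.13% lower. The median log2 fold change of the 6 genes was 0.88, and that of all genes tested was 0.0049. Macrophage markers, as a list of 18 genes, had a median of 0.92, and their summed level overlapped between the genotypes. In bulk RNA, more macrophages and more of a transcript per macrophage cannot be told apart, and the part of these cells in the results of the oxidase subunits was not tested.

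**Figure D1:**
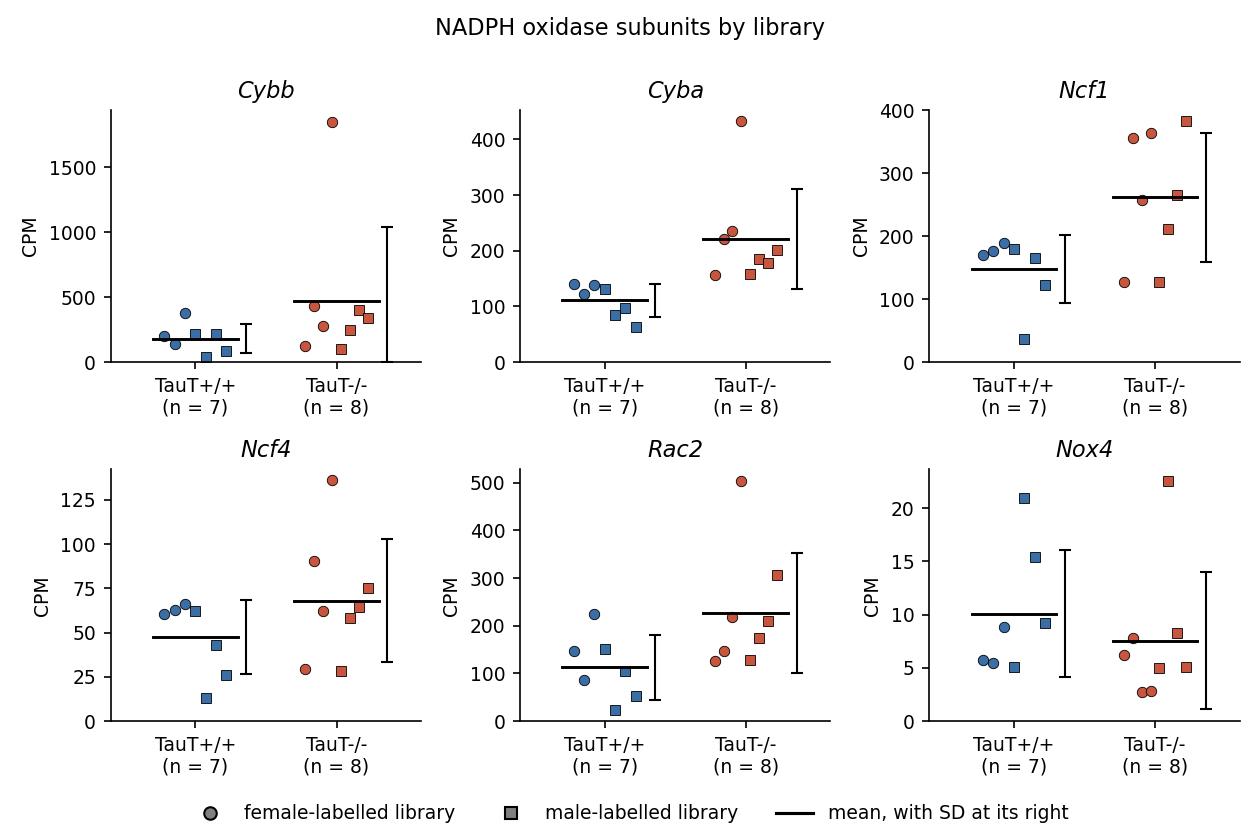
CPM of each of the 6 genes in the 15 libraries, with TauT+/+ in blue and TauT-/- in red, circles for female-labelled and squares for male-labelled libraries; the line is the mean and the bar at its right the SD, cut at 0. The genotypes of *Cyba* were apart, from 62.4 to 140 CPM against 156 to 434 CPM, and those of the other 5 genes overlapped.

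The p22phox gene *Cyba* (ENSMUSG00000006519.13, chromosome 8 of GRCm39 from 123150422 to 123159706, minus strand, 6 exons in its canonical transcript) had 62.4 CPM in its lowest, 122 in its median and 140 in its highest TauT+/+ library. In TauT-/- libraries the lowest was 156, the median 193 and the highest 434 CPM. Every TauT-/- library was thus above every TauT+/+ library, as in 0.783% of all genes tested. The means were 111 ± 30.0 CPM (SD, n = 7) and 221 ± 90.3 CPM (SD, n = 8), which gave a log2 fold change (± SE) of 0.95 ± 0.20 and an edgeR adjusted p of 0.0403. The lowest TauT-/- values, 156 and 158 CPM, were those of the near-identical libraries TauT-/- female 1 and male 1. Near-identical TauT+/+ female 1 and male 1 had 140 and 132 CPM, among the highest of their genotype.

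The *Cyba* call depended on the libraries. With 13 libraries its log2 fold change was 1.07 (edgeR adjusted p = 0.0718) when the near-identical pairs were each reduced to the female-labelled library and 1.03 (edgeR adjusted p = 0.1003) when to the male-labelled one. Without TauT+/+ male 1, TauT-/- male 1 and TauT+/+ female 3, the sex-discordant libraries, it was 1.11 (edgeR adjusted p = 0.155). The unadjusted edgeR p of *Cyba* was 0.000258 with all libraries, 0.000253 and 0.0001996 in those 13-library fits and 0.000543 in the 12-library fit. Over all genes, these reduced fits called 2, 7 and 0 higher and 0 lower, where the main fit called 103 higher and 108 lower. In 15 fits that each lacked 1 library the change was 0.78 to 1.06, and the call was kept in 5. The unadjusted edgeR p of *Cyba* in them was 6.54e-05 to 0.000842. The call was lost without TauT+/+ female 1, 2 or 3 (edgeR adjusted p = 0.0927, 0.107 and 0.0768), TauT+/+ male 2 or 4 (0.0747 and 0.05035), TauT-/- female 3 (0.0751) or TauT-/- male 1, 2, 3 or 4 (0.0621, 0.0514, 0.0595 and 0.0782).

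*Cybb* (ENSMUSG00000015340.11, chromosome X from 9301491 to 9354010, minus strand), the gene of the phagocyte catalytic subunit, varied most among the libraries. TauT+/+ libraries had 42.2, 197 and 376 CPM as lowest, median and highest, and TauT-/- libraries 103, 305 and 1845 CPM. The highest came from the library labelled TauT-/- female 4, and the next in its genotype was 430 CPM. TauT-/- female 4 also had the highest summed macrophage markers and the lowest summed stromal markers. The means were 181 ± 109 CPM (SD, n = 7) and 469 ± 568 CPM (SD, n = 8), which gave a log2 fold change (± SE) of 1.21 ± 0.55 and an edgeR adjusted p of 0.202. Without TauT-/- female 4 it was 0.62 (edgeR adjusted p = 0.418), so this library carried much of the difference. The genotypes overlapped, with 3 of 8 TauT-/- libraries above the highest TauT+/+ library. With the near-identical or sex-discordant libraries left out the log2 fold change was 1.24 to 1.74 (edgeR adjusted p = 0.163 to 0.235).

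Of the cytosolic subunits, *Ncf1* (ENSMUSG00000015950.15, chromosome 5 from 134248907 to 134258479, minus strand) encodes p47phox, the organizer that carries the complex to the membrane. Its lowest, median and highest values were 36.1, 170 and 188 CPM in TauT+/+ and 127, 262 and 383 CPM in TauT-/- libraries. In 6 of 8 TauT-/- libraries it was above every TauT+/+ library, and the near-identical TauT-/- female 1 and male 1 lay within the TauT+/+ range. The log2 fold change (± SE) was 0.81 ± 0.33, with an edgeR adjusted p of 0.153. Without TauT+/+ male 2, the lowest library, it was 0.60 (edgeR adjusted p = 0.203).

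*Ncf4* (ENSMUSG00000071715.14, chromosome 15 from 78128982 to 78146784, plus strand) encodes p40phox, which binds a phosphoinositide of the phagosome membrane. It had 12.98, 60.7 and 66.0 CPM as lowest, median and highest in TauT+/+ and 28.1, 63.3 and 136 CPM in TauT-/- libraries. The medians were nearly equal, and the log2 fold change (± SE) was 0.50 ± 0.34, with an edgeR adjusted p of 0.393. It was 0.31 without TauT+/+ male 2 and 0.32 without TauT-/- female 4. The 95% interval of the log2 fold change, -0.25 to 1.25, lies on both sides of 0.

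*Rac2* (ENSMUSG00000033220.9, chromosome 15 from 78443367 to 78457429, minus strand) is the Rac GTPase of blood cells, which also drives their actin movement. TauT+/+ libraries had 22.6, 106 and 226 CPM as lowest, median and highest, and TauT-/- libraries 127, 193 and 504 CPM. Here 4 of 7 TauT+/+ libraries were below the lowest TauT-/- library, and 2 of 8 TauT-/- libraries were above the highest TauT+/+ library. The log2 fold change (± SE) was 1.02 ± 0.41, with an edgeR adjusted p of 0.151, and 0.76 without TauT-/- female 4. Fits without the near-identical or sex-discordant libraries gave 1.15 to 1.53 for *Rac2* (edgeR adjusted p = 0.138 to 0.184), 0.92 to 1.05 for *Ncf1* (0.133 to 0.196) and 0.62 to 0.83 for *Ncf4* (0.219 to 0.315).

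*Nox4* (ENSMUSG00000030562.18, chromosome 7 from 86895304 to 87047918, plus strand), the stromal catalytic subunit, was the rarest of the 6 transcripts. It had 5.04, 8.81 and 21.0 CPM as lowest, median and highest in TauT+/+ libraries, and 2.77, 5.62 and 22.6 CPM in TauT-/- libraries. The highest TauT-/- library, TauT-/- male 2, was above every TauT+/+ library, and 3 of 8 TauT-/- libraries were below all of them, so the TauT-/- range enclosed the TauT+/+ range. The log2 fold change (± SE) was -0.37 ± 0.39, with a 95% interval of -1.22 to 0.48 and an edgeR adjusted p of 0.590. It was -0.77 (edgeR adjusted p = 0.198) without TauT-/- male 2 and -0.23 (0.783) without TauT+/+ male 2. With the near-identical or sex-discordant libraries left out it was -0.44 to -0.28 (0.525 to 0.733).

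The windows upstream of 4 of these genes are shown because *Cybb* and *Nox4* encode the catalytic subunits, *Cyba* is the member that passed the test and *Ncf4* holds matches to a motif of the myeloid factor PU.1. *Rac2* also holds such matches and is not shown. Each line gives 150 bases that end just before the start of the canonical transcript, read from GRCm39 with GENCODE M39 and written 5′ to 3′ on the gene's strand. Capitals mark matches to GAGGAA, a form of the core of PU.1 sites, or to TGANTCA, a loose form of the AP-1 motif. N is any base, so TGANTCA also takes strings outside the strict AP-1 consensus.
Cybb, chrX:9335571-9335720, minus strand: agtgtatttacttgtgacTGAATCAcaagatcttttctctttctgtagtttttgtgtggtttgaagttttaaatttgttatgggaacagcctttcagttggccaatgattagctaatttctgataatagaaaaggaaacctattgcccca
Cyba, chr8:123159707-123159856, minus strand: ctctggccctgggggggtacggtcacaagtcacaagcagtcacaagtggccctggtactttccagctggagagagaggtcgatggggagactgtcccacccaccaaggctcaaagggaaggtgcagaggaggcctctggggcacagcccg
Ncf4, chr15:78128832-78128981, plus strand: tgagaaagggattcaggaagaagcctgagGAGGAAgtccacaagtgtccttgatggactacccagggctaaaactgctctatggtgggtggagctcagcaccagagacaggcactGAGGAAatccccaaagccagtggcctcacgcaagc
Nox4, chr7:86895707-86895856, plus strand: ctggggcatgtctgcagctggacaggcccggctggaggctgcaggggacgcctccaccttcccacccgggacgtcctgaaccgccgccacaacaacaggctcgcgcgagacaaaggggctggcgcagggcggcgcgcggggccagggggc

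In the 250 bases upstream, GAGGAA was found on either strand in 2 of the 6 genes, with 2 matches in *Ncf4* and 5 in *Rac2*, and in 22.9% of the windows of 21770 protein-coding genes. The *Ncf4* matches lay 121 to 116 and 35 to 30 bases before the start. TGANTCA was found only in *Cybb* among the 6, at 132 to 126 bases before the start on the gene's strand, and in 6.17% of all windows. The *Cybb* match reads TGAATCA, which is outside the strict AP-1 consensus. No match of one motif overlapped a match of the other. The *Nox4* window had 67.2% G and C and 20 CpG dinucleotides, against 32.8% and 1 in *Cybb* and a median of 53.2% G and C over all windows. A match is a run of letters and not a measured binding site. Other forms of the PU.1 core were not searched, so a window without GAGGAA can still hold a PU.1 site.

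Levels of different genes were compared as CPM per kb of exon, with the exons of all annotated transcripts merged, so that a gene with long rare isoforms appears lower. In TauT+/+ libraries the order was *Cyba* (48.2 ± 13.03 CPM per kb, SD, n = 7), *Ncf1* (40.5 ± 14.7), *Rac2* (31.8 ± 19.2), *Cybb* (31.1 ± 18.7), *Ncf4* (20.6 ± 9.07) and *Nox4* (1.19 ± 0.71). Neighbours among the first 5 differed by less than the larger of their SDs, and *Nox4*, at 0.59 to 2.47 CPM per kb, lay below the lowest library of each of the others. In TauT-/- libraries the order was *Cyba* (95.9 ± 39.2 CPM per kb, SD, n = 8), *Cybb* (80.7 ± 97.7), *Ncf1* (71.4 ± 27.8), *Rac2* (63.9 ± 35.6), *Ncf4* (29.4 ± 15.0) and *Nox4* (0.89 ± 0.75). The ratio of *Cybb* to *Nox4* per kb was 2.93, 36.9 and 62.1 as lowest, median and highest in TauT+/+ libraries and 15.8, 74.9 and 960 in TauT-/- libraries. In each library the phagocyte catalytic subunit was thus the more abundant transcript.

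The sex labels were also examined on their own, in a fit with 1 term per group. The log2 fold change (± SE) of *Cyba* was 0.94 ± 0.28 in male-labelled and 0.97 ± 0.31 in female-labelled libraries (edgeR adjusted p = 0.560 and 0.250). The genotypes did not overlap under either label, which follows from their separation over all libraries and adds nothing to it. The changes in male-labelled and female-labelled libraries were 0.96 and 1.49 for *Cybb*, 0.97 and 0.63 for *Ncf1*, 0.65 and 0.33 for *Ncf4*, 1.30 and 0.70 for *Rac2*, and -0.31 and -0.45 for *Nox4*. The direction of each gene was the same under both labels. The labels are not independent, since each near-identical pair has 1 library under each label. Sex-linked genes also went against the label in some libraries. No gene of the table passed the threshold with edgeR in male-labelled (0%) or in female-labelled libraries (0%), and 1589 and 2702 of 18263 genes had an unadjusted p under 0.05. The genotype effect differed between the labels by -0.60 to 0.53 on the log2 scale over the 6 genes, with standard errors of 0.41 to 1.10, and edgeR called neither these nor any other gene for that difference (0%; 295 genes had an unadjusted p under 0.05, and DESeq2 called 3).

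Markers of macrophages, which carry the phagocyte oxidase, were present, and most were higher in TauT-/- libraries. Of 18 macrophage markers, all passed the filter, 17 were higher and 1 lower in TauT-/- libraries, and their median log2 fold change was 0.92. Without adjustment 12 of the 18 had a p under 0.05, all of them higher, and DESeq2 called 7 higher and 0 lower. The edgeR test called 1 of them, *Cd68*, a lysosomal glycoprotein, which rose from a TauT+/+ mean of 178 ± 83.6 CPM (SD, n = 7) to 532 ± 289 CPM in TauT-/- libraries (SD, n = 8), which gave a log2 fold change (± SE) of 1.503 ± 0.33 and an edgeR adjusted p of 0.0432. That call was kept in 3 of the 15 fits without 1 library (TauT+/+ male 1 or 3, or TauT-/- female 1), and the other 12 gave an edgeR adjusted p of 0.0548 to 0.110. It was also lost with 13 libraries (edgeR adjusted p = 0.0703 with the female-labelled and 0.1039 with the male-labelled libraries of the near-identical pairs) and without the 3 sex-discordant libraries (0.1556). The 3 most abundant were *Lyz2*, *Csf1r* and *Adgre1*, with log2 fold changes of 1.01, 0.92 and 1.02 (edgeR adjusted p = 0.153, 0.155 and 0.370). The summed level of the 18 markers was 1404, 7877 and 9419 CPM as lowest, median and highest in TauT+/+ libraries and 6397, 15323 and 20745 CPM in TauT-/- libraries.

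All 10 general leukocyte markers were higher, with log2 fold changes of 0.78 to 1.18, and edgeR called 0 of them, while all 10 had an unadjusted p under 0.05 and DESeq2 called 3. *Laptm5*, *Itgb2* and *Cd53* were the most abundant, with log2 fold changes of 0.94, 1.00 and 1.18. The 14 stromal markers had a median of -0.54, with 10 lower and 4 higher, 0 called by edgeR and 2 lower by DESeq2, and 4 with an unadjusted p under 0.05. Their summed level was 34904 to 51396 CPM in TauT+/+ and 7605 to 48321 CPM in TauT-/- libraries, the lowest in TauT-/- female 4. *Col1a1*, *Cxcl12* and *Col1a2* had log2 fold changes of -0.65, -1.46 and -0.30.

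Neutrophils also carry the phagocyte oxidase, and 6 of 13 neutrophil markers passed the filter, 3 higher and 3 lower. Some of these markers were at or near 0: *Retnlg* was at 0 in all libraries, and *S100a9*, *Ngp*, *Cxcr2* and *Ly6g* had means below 0.04 CPM in both genotypes. Others were not, and *S100a8* reached 51.4 CPM in 1 TauT-/- library. *Mmp8*, named after its values were seen, reached 17.2 CPM in TauT+/+ and 38.0 CPM in TauT-/- libraries. The highest values were 21.8 and 30.9 CPM for *Csf3r* and 21.1 and 17.1 CPM for *Camp*. *Mmp9*, *Camp* and *Csf3r* were the most abundant of the list, and none passed the test (edgeR adjusted p = 0.966, 0.431 and 0.589). Summed neutrophil markers ranged from 29.9 to 351 CPM in TauT+/+ and from 18.8 to 516 CPM in TauT-/- libraries. On average most of that sum was *Mmp9*, at 131 and 123 CPM, and no other marker of the list averaged more than 9.81 CPM in either genotype. Of 8 lymphocyte markers 0 passed the filter, with *Cd3e* and *Cd3g* at 0 in all libraries. Osteoclast markers (6 of 7 tested, 4 higher and 2 lower) and endothelial markers (6 of 7 tested, 4 higher and 2 lower) had 0 calls with edgeR. DESeq2 called 0 neutrophil and 0 osteoclast markers and 1 endothelial marker, *Kdr*, higher, and 0, 0 and 1 of these lists had an unadjusted edgeR p under 0.05. *Kdr*, a VEGF receptor, averaged 2.85 ± 1.89 CPM in the 7 TauT+/+ and 16.3 ± 11.8 CPM in the 8 TauT-/- libraries (SD), or 2.18 on the log2 scale (edgeR adjusted p = 0.0564), with 7 of 8 TauT-/- libraries above all TauT+/+ ones. Summed endothelial markers ranged from 1.61 to 12.1 CPM in TauT+/+ and from 8.52 to 44.2 CPM in TauT-/- libraries. On average most of the sum in TauT-/- libraries was *Kdr*, and no other marker of that list averaged more than 1.37 CPM in either genotype. The others that were tested had log2 fold changes of -0.65 to 0.61 (edgeR adjusted p = 0.706 to 0.951). Summed osteoclast markers ranged from 72.5 to 154 CPM in TauT+/+ and from 42.5 to 363 CPM in TauT-/- libraries.

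**Figure D2:**
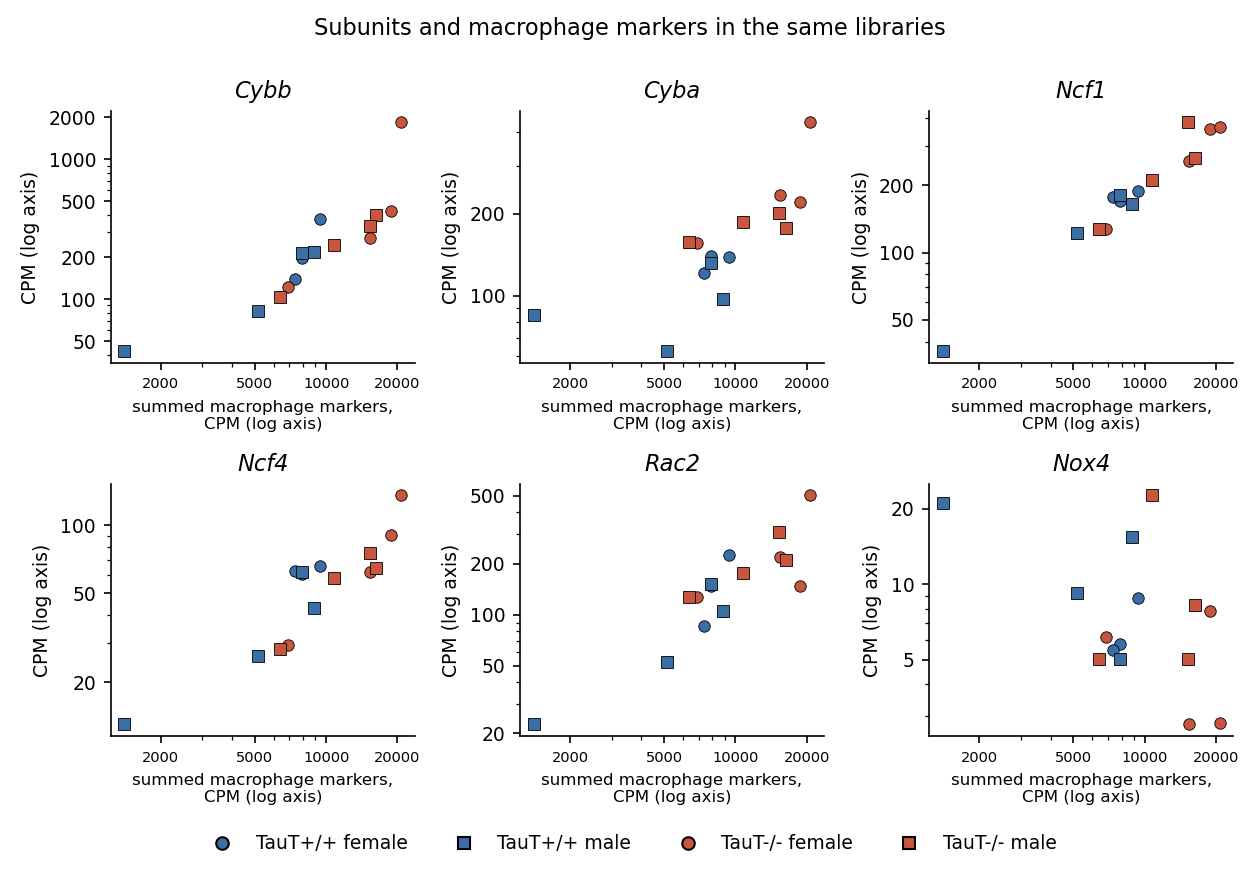
CPM of each of the 6 genes against the summed CPM of 18 macrophage markers in the same library, both on log axes, with TauT+/+ in blue, TauT-/- in red, circles for female-labelled and squares for male-labelled libraries. *Ncf1* stayed within a 1.58-fold range per unit of this sum while its own level spanned 10.6-fold, and *Nox4* showed no such course. The lowest *Ncf1* level and the lowest sum were both those of TauT+/+ male 2. The most abundant marker of the sum was *Lyz2*.

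The 5 phagocyte subunits varied together across the libraries, and *Nox4* did not vary with them. After the mean of each sex label was removed, Spearman's rank correlation over the 15 libraries was 0.704 to 0.939 among *Cybb*, *Cyba*, *Ncf1*, *Ncf4* and *Rac2*, and -0.371 to -0.164 between each of them and *Nox4*. These values are a description, since the libraries share genotypes and near-identical pairs. The summed macrophage markers weigh *Lyz2* most, at a mean of 3845 CPM in TauT+/+ and 7801 CPM in TauT-/- libraries. No other marker of that sum averaged more than 955 CPM in either genotype. Per 1000 CPM of the macrophage markers, *Ncf1* had 18.6 to 25.7 CPM in TauT+/+ and 16.3 to 25.1 CPM in TauT-/- libraries. This was a 1.58-fold range over all libraries, where its CPM spanned 10.6-fold. For *Ncf4* the range narrowed from 10.5-fold to 2.34-fold, for *Rac2* from 22.3-fold to 3.11-fold and for *Cybb* from 43.8-fold to 5.53-fold. The lowest CPM of *Ncf1*, *Ncf4*, *Rac2* and *Cybb* was in TauT+/+ male 2, so these wide ranges rest much on that library. It had 36.1 CPM of *Ncf1*, where the next lowest library had 122 CPM. Its summed macrophage markers were 1404 CPM, where the next lowest sum was 5152 CPM. The range of *Cyba* narrowed less, from 6.95-fold to 5.57-fold, with 60.5 CPM per 1000 in TauT+/+ male 2, the library with the fewest macrophage markers. The median of this ratio was 16.5 in TauT+/+ and 16.3 in TauT-/- libraries for *Cyba*, 25.0 and 22.3 for *Cybb*, 22.8 and 18.7 for *Ncf1*, and 16.1 and 17.4 for *Rac2*. It was 7.71 and 4.60 for *Ncf4* and 0.94 and 0.46 for *Nox4*, and the genotypes overlapped for each of the 6. *Nox4* per macrophage signal spanned 111-fold, more than its 8.14-fold range in CPM.

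The genes that followed each subunit most closely were searched among 13197 genes with a mean of at least 1 CPM, by the same rank correlation over 15 libraries. For *Cybb* they were *Igsf6*, *Tifab* and *Shtn1* (correlation 0.979, 0.975 and 0.971), and for *Cyba* they were *Mapkapk2*, *Cd68* and *Fcer1g* (0.979, 0.975 and 0.975). For *Ncf1* they were *Trem2*, *Cd300c2* and *Spi1* (0.986, 0.982 and 0.982), of which *Trem2* is a lipid receptor of macrophages and *Spi1* encodes PU.1. For *Ncf4* they were *Csf2rb*, *Rasgef1b* and *Slc16a10* (0.971, 0.968 and 0.961), and for *Rac2* they were *Fcgr4*, *Cd52* and *Slamf9* (0.961, 0.954 and 0.954). For *Nox4* they were *Eri3*, *Psmc3* and *Hnrnpm* (0.846, 0.836 and 0.821), which encode an exonuclease, a proteasome ATPase and an RNA-binding protein and had log2 fold changes of -0.06, -0.03 and -0.10.

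Around these subunits, a list of 12 further genes of oxidase complexes had 9 tested genes, 5 higher and 4 lower, with a median log2 fold change of 0.12. edgeR called 0 of the 9, 4 had an unadjusted p under 0.05 and DESeq2 called 1, *Rac1*. *Rac1*, the Rac GTPase of all cells, averaged 314 ± 29.0 CPM in the 7 TauT+/+ and 379 ± 39.9 CPM in the 8 TauT-/- libraries (SD), or 0.27 on the log2 scale (edgeR adjusted p = 0.126, DESeq2 adjusted p = 0.0439). *Cybc1*, a chaperone of the catalytic heterodimer, and *Rac3* had log2 fold changes of 0.12 and 0.19 (edgeR adjusted p = 0.539 and 0.583). The other catalytic subunits, named after their values were seen, were scarce: *Nox1*, *Nox3*, *Duox1* and *Duox2* had means of 0.035 to 0.68 CPM in each genotype.

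A list of 18 regulators of the oxidases was tested in full, with 14 higher, 4 lower and a median log2 fold change of 0.39. edgeR called 0 of them, 11 had an unadjusted p under 0.05, all higher, and DESeq2 called 7 higher and 0 lower. These 7, named after their values were seen, were *Prkcb* and *Prkcd*, kinases that phosphorylate p47phox, the Rac exchange factors *Vav1* and *Dock2*, *Arhgdia*, which holds Rac GTPases in the cytosol, *P4hb*, a protein disulfide isomerase, and *Tgfb1*, which induces *Nox4* in fibroblasts. *P4hb* had 1201 ± 263 and 1552 ± 257 CPM (SD, n = 7 and 8), or 0.40 on the log2 scale (edgeR adjusted p = 0.120). *Arhgdia* had 622 ± 60.1 and 779 ± 74.7 CPM, or 0.32 on the log2 scale (edgeR adjusted p = 0.0977). Every TauT-/- library of *Arhgdia* was above every TauT+/+ library, as in 0.783% of all genes tested. *Sh3pxd2a* and *Sh3pxd2b*, the Tks scaffolds that can stand in for p47phox outside phagocytes, had log2 fold changes of -0.49 and 0.18 (edgeR adjusted p = 0.310 and 0.446).

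A list of 10 genes that supply NADPH or remove superoxide and hydrogen peroxide had 9 tested genes, 2 higher and 7 lower, with a median log2 fold change of -0.20. edgeR and DESeq2 each called 1 of them, *Me1*, the cytosolic malic enzyme, lower. *Me1* fell from a TauT+/+ mean of 123 ± 27.3 CPM (SD, n = 7) to 79.2 ± 12.1 CPM in TauT-/- libraries (SD, n = 8), which gave a log2 fold change (± SE) of -0.63 ± 0.13 and an edgeR adjusted p of 0.0416, and the genotypes overlapped. Its call was kept in 7 of the 15 fits without 1 library. It was lost without TauT+/+ female 1, 2 or 3, TauT+/+ male 2, TauT-/- female 3 or 4, or TauT-/- male 1 or 4, with an edgeR adjusted p of 0.0560 to 0.110, and in the fits with 13, 13 and 12 libraries (0.0729, 0.1073 and 0.1556). The most abundant others were *Sod3*, the secreted superoxide dismutase, *Pgd*, of the pentose phosphate pathway, *Cat*, which encodes catalase, and *Idh1*, a cytosolic source of NADPH. Their log2 fold changes were -0.46, 0.30, 0.08 and -0.71 (edgeR adjusted p = 0.613, 0.406, 0.883 and 0.153).

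**Figure D3:**
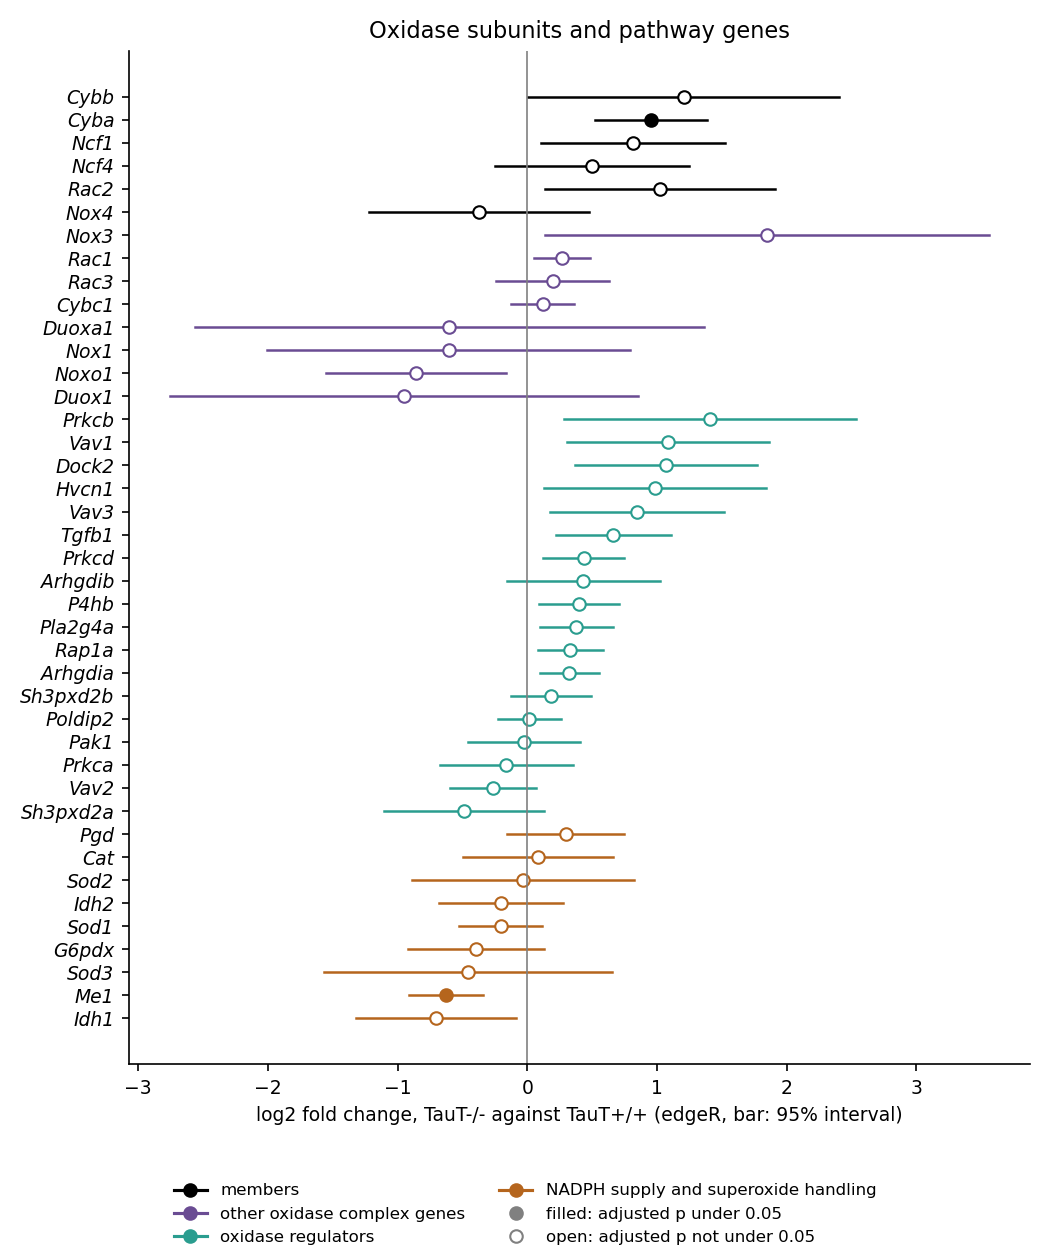
Log2 fold change between TauT-/- and TauT+/+ libraries with its 95% interval for the 6 members and 35 of the 36 tested genes of the 3 lists around them (the one not reported by name is left out), filled where the edgeR adjusted p was under 0.05. Filled points are *Cyba* (0.95) and *Me1* (-0.63), and *Nox4* (-0.37) is the only member below 0.

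**Figure D4:**
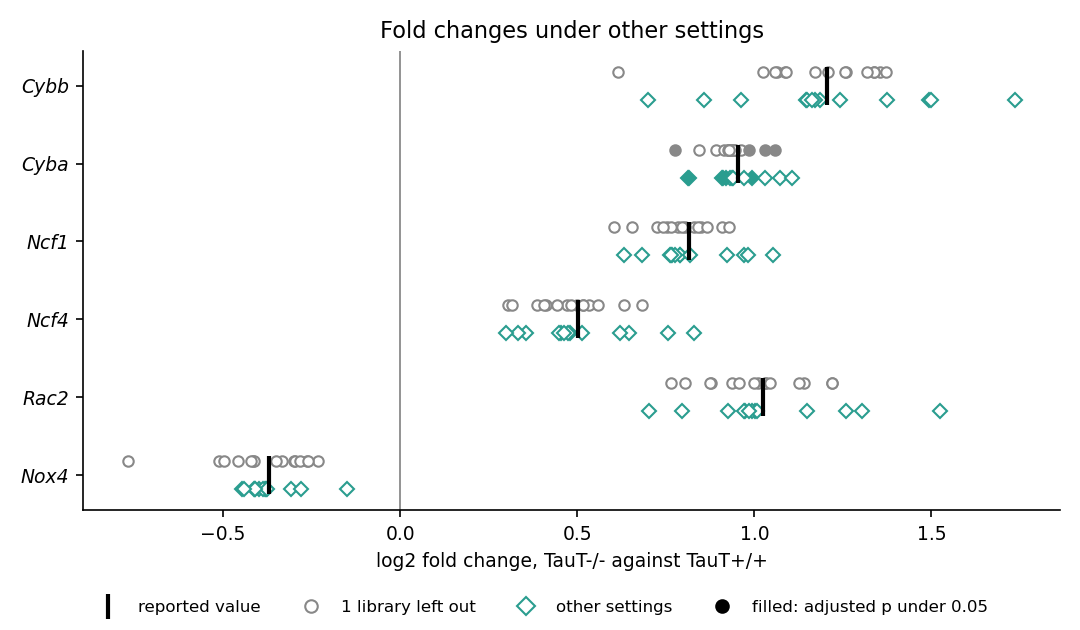
Log2 fold change of each member as reported (black bar), in 15 fits that each left out 1 library (circles) and in 13 other settings (diamonds), filled where the adjusted p was under 0.05. Filled symbols appear for *Cyba* alone, and no gene changes side: the 5 phagocyte subunits stay above 0 and *Nox4* below it.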

How the data were processed

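Bulk RNA-sequencing counts of 15 MSC libraries were used. Full-length cDNA was primed with oligo-dT and amplified. Per the submitters' processing notes and the methods, the authors filtered reads with fastp 0.23.1, mapped them with STAR 2.7.9a to GRCm39 with GENCODE M31 and counted them per gene by strand with featureCounts of Subread 2.0.1. The protocol does not say that the kit keeps strand. The authors deposited these raw counts, whole numbers for each of 56832 genes.

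From these, edgeR 4.0.16 (R 4.3.3) was run with TMM scaling, filterByExpr by the 4 groups (18263 genes kept) and the quasi-likelihood test over all kept genes with sex label and genotype in the model, with Benjamini-Hochberg adjustment. The study's own model had the same terms, in DESeq2. Intervals of 95% come from the standard error and the residual degrees of freedom. Alternatives were DESeq2 1.42.0, voom of limma 3.58.1, upper-quartile scaling, other filters, no sex label term and a replicate block. Others were the contrast within 1 sex label and fits without chosen or single libraries. The fit was tested on simulated counts. On the opposite strand, exons of *Il17c*, *Xk* and *Gtf2ird2* overlap those of *Cyba*, *Cybb* and *Ncf1*, with 32, 2308 and 7605 counts in all against 120450, 205635 and 157909. Positions, merged exon lengths and sequences come from GRCm39 with GENCODE M39, by symbol.

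The members and lists were chosen with earlier results of these data known. Named are all members, the called genes of each list, and its 4 most abundant tested genes (3 for marker lists), plus the 3 genes most like each member by Spearman's rank correlation of log2 CPM (prior count 2, mean of at least 1 CPM). Genes outside this rule are said to be named after their values were seen, or are markers at or near 0, *Ptprc* (the target of the depletion) or *Kdr* (a DESeq2 call). A gene of the complex list is counted but not reported here by name.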

Additional observations from a re-analysis of the deposited data

Results flagged for a closer look

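In the 3 groups with 4 libraries, no oxidase subunit had a library whose gap to the nearest one, over the whole range, passed Dixon's 95% critical value. *Cybb* in TauT-/- female libraries came close, with TauT-/- female 4 at a gap of 0.821. For none of the 6 did the test find a different genotype effect under the 2 sex labels. Of 39 groups examined, 4 had such a library, all in summed marker lists. Chance gives about 1 in 20 (1.95) where groups are independent and normally spread. These groups share libraries, so 4 against 1.95 cannot be read as an excess. Summed neutrophil markers were high in TauT-/- female 4 (451 CPM, gap 0.868 of the range) and in TauT-/- male 3 (516 CPM, 0.928). *Mmp9* alone reached 476 CPM in a TauT-/- library, while *Ly6g* and *S100a9* stayed at or below 0.082 CPM in every library. TauT-/- female 4 and male 3 also had the highest summed osteoclast markers (215 and 363 CPM). Summed lymphocyte markers were highest in TauT-/- male 2, at 0.58 CPM (0.879). Summed endothelial markers in TauT-/- male libraries were highest in TauT-/- male 1 (14.5 CPM, 0.909). That library is sex-discordant and near-identical to TauT-/- female 1, which had 15.8 CPM.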

How the results depend on the processing

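Directions held for all 6 members in each of the 28 alternatives. For *Cybb*, *Ncf1*, *Ncf4*, *Rac2* and *Nox4*, all 140 alternative values stayed on the same side of the threshold, with 0 calls. *Cyba* stayed past it in 6 of 13 settings, among them DESeq2 (log2 fold change 0.94, adjusted p = 0.000696) and voom (0.81, adjusted p = 0.0168). It was not past it without a filter on low counts (0.93, edgeR adjusted p = 0.0549) or within the male-labelled (0.94, 0.560) or female-labelled libraries (0.97, 0.250). Both label values are contrasts of the fit with 1 term per group, which held all 15 libraries. Nor was it past the threshold with 13 libraries (1.07 with the female-labelled and 1.03 with the male-labelled libraries of the near-identical pairs kept) or 12 (1.11). In these settings the number of members called higher was 0. It was 0 to 1 when 1 library was left out, where the *Cyba* change was 0.78 to 1.06. Fewer libraries enter the fits with 13 or 12 libraries or with 1 left out, and more genes enter the unfiltered fit. Over all its alternatives the adjusted p of *Cyba* was 0.000696 to 0.560. DESeq2 called 1 further complex gene and 7 regulators where edgeR called 0, and the cause was not tested. A filter on the model matrix, which kept 17204 genes and was chosen after seeing the data, left *Cyba* past the threshold (0.92, edgeR adjusted p = 0.0398). *Me1* and *Cd68*, added in the same way, stayed past it in 6 and 5 of 13 settings.

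With the replicate block, *Cyba* had a log2 fold change of 0.82 (edgeR adjusted p = 0.0591), 0 members were called, and *Cybb* had 0.70. *Me1* and *Cd68* also missed the threshold (edgeR adjusted p = 0.0539 and 0.0675). Deviations of same-numbered libraries correlated at -0.048 to 0.612 over 7 pairs, above 0.1 in 5, and 11 of 14 libraries correlated best with their own number, a hint from the data; the labels give no shared litter or day.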
